A study of Homo sapiens with 4 samples.

Results

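The regions described here are the GATA4 intervals of distal chromosome 3q: every interval of the deposited list that lies on chromosome 3 and starts at or beyond position 165000000, in build hg19. They were chosen by position after the high number of intervals there had been seen in this list. The rule found 947 intervals, which is 4.48% of the 21139 on autosomes and chromosome X and 70.4% of the 1346 intervals on chromosome 3. The comparison set was the 399 intervals of chromosome 3 before that limit. The list came from 4 CUT&RUN libraries of PaTu8988S, an established cell line from a pancreatic adenocarcinoma, all untreated as far as the labels say and each made from 500000 cells with 10 ug of the anti-GATA4 antibody MAB2606. In CUT&RUN an antibody draws a nuclease to the protein it binds, and the DNA fragments cut free are sequenced. The 4 libraries form 1 group and are pooled in 1 list of intervals common to them. The labels do not say whether the libraries came from separate cultures, and libraries without the GATA4 antibody were not analysed here.

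GATA4 is a zinc-finger transcription factor that binds DNA at GATA motifs and works beside GATA6 in the endoderm, from which stomach, liver and pancreas arise. In pancreatic ductal adenocarcinoma both factors are known as regulators of the classical, epithelial expression programme, and the series title asks about their loss. The end of the long arm of chromosome 3 carries several genes well known in cancer. In the order of the RefSeq gene table (assembly GRCh38.p14), 184 protein-coding genes lie from BCHE to the end of the arm. Among them, in that order, are MECOM, a zinc-finger transcription factor; SKIL, a repressor of TGF-beta signalling; SLC2A2, the glucose transporter of liver and beta cells; PIK3CA, the catalytic subunit of a lipid kinase; and SOX2, a transcription factor of stem cells and squamous epithelium. They are followed by EPHB3, an ephrin receptor; TP63, the p53 family member of basal epithelium; CLDN1, a tight junction protein; HES1, a target of Notch signalling; and MUC20 and MUC4, which are membrane mucins. That order is background only: the table is of another build than the intervals, so no interval below is assigned to a gene.

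Density along the chromosome chose these intervals, so the densities that follow are descriptions without a test. Distal 3q held 28.8 intervals per Mb over 32.9 Mb, from the limit to the end of the last interval. Chromosome 3 before the limit held 2.48 per Mb over 160.9 Mb. That span was counted from its first interval, which started at 4072269, and leaves out the empty ground before it. The ratio was 11.6. The copy number of this cell line along chromosome 3 was not analysed here, so the densities are per Mb of the reference and not per copy. The distal intervals together covered 716.5 kb, or 2.18% of their stretch, against 0.125% before it, a ratio of 17.5. The ratio of covered ground was larger than that of interval numbers, the distal intervals being also wider. As the 4 libraries are pooled and intervals of 1 genome are not replicates, no difference given here has a spread between libraries or a p-value.

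The limit did not fall on a sharp change. The 3 last intervals outside it were chr3:162760853-162761285, chr3:163581702-163582158 and chr3:164866545-164867082, with widths of 432, 456 and 537 bp. The 3 first intervals inside were chr3:165169275-165169667 (392 bp), chr3:165975631-165976653 (1022 bp) and chr3:166141712-166142211 (499 bp). The stretch began thinly and filled by steps: its first 4 windows of 1 Mb held 2, 3, 6 and 10 intervals, and the last window before the limit held 1. The count then went from 10 to 29 where the window from 168 Mb gave way to that from 169 Mb. Of the 947 intervals, 926 started at or beyond 169 Mb, and with that limit, chosen after seeing the counts, the density ratio was 12.6.

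**Figure D1:**
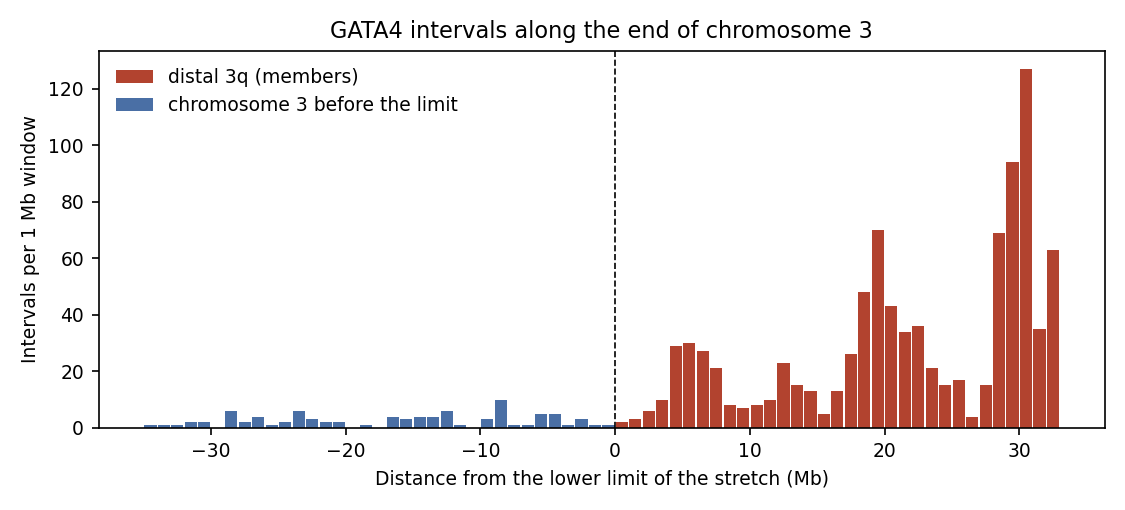
Number of GATA4 intervals in each 1 Mb window (bars) against the distance of the window from the lower limit of distal 3q in Mb, with members in red and chromosome 3 before the limit in blue; the dashed line is the limit. Windows before the limit hold at most 10 intervals over the part shown, and the members form 3 humps that reach 30, 70 and 127 intervals.

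Within distal 3q the intervals were gathered in 3 humps with thinner ground between them. The 33 windows of 1 Mb, the last of them cut short by the end of the list, held from 2 to 127 intervals with a median of 21. The median window of chromosome 3 before the limit held 1. A hump was taken as 2 or more adjacent windows at or above the median of 21, so the levels describe the pattern and test nothing. The lowest hump, from 169 to 173 Mb, held 107 intervals (26.75 per Mb), and its 4 windows were even, at 29, 30, 27 and 21. The ground from 173 to 182 Mb held 102 intervals (11.3 per Mb), with 23 in its fullest window and 5 in its emptiest. The middle hump, from 182 to 189 Mb, held 278 intervals (39.7 per Mb) and was highest from 184 to 185 Mb, where 70 started. From 189 to 193 Mb the count was 51 (12.75 per Mb), and the window from 191 Mb held 4.

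The third hump closed the chromosome. From 193 Mb to the last interval, which ended at 197878955, there were 388 intervals, or 79.5 per Mb. This is 41.0% of the members in 4.88 Mb, and the windows from 193, 194, 195, 196 and 197 Mb held 69, 94, 127, 35 and 63. Intervals covered 7.05% of this ground, against 2.90% of the middle hump and 1.70% of the first. The share covered was 0.677% from 173 to 182 Mb, 0.711% from 189 to 193 Mb and 0.303% in the first 4 Mb of the stretch. Even those first 4 Mb, at 5.25 intervals per Mb, lay above the 2.48 per Mb of the chromosome before the limit.

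The intervals were spread over most of the stretch. In windows of 250 kb, 117 of 132 distal windows (88.6%) held at least 1 interval, and the median window held 5. Before the limit, counted from 4 Mb on, 209 of 644 windows (32.5%) held any and the median was 0. The fullest 20 distal windows, 15.2% of them, were enough to hold 50% of the members. The longest stretches without an interval lay next to the limit, at chr3:166583252-167604911 (1022 kb) and chr3:165169667-165975631 (806 kb). The 3 next longest were chr3:175985348-176573671 (588 kb), chr3:174931487-175495291 (564 kb) and chr3:177418773-177920015 (501 kb), all in the thin ground between the first and the middle hump. Before the limit the longest was chr3:71304199-75484405, of 4.18 Mb.

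Set among windows of 5 Mb over all chromosomes, each of the 7 distal windows held 50 intervals or more, from 50 to 225. In the whole list 105 of 620 such windows (16.9%) did, and 1 of the 33 before the limit on chromosome 3. The 7 windows held, in order, 50, 93, 69, 162, 149, 199 and 225 intervals and ranked 102, 51, 75, 20, 23, 15 and 13 among the 620. The last of them was cut short by the end of the list. No other chromosome had as long a run of adjacent windows at that level: the next were 5 windows on chromosome 11 from 55 to 80 Mb, 4 on chromosome 20 from 45 to 65 Mb and 4 on chromosome 1 from 140 to 160 Mb. The limit matters here, since the first distal window stood exactly at it. At 30 intervals or more chromosome 20 had a run of 10 windows and chromosomes 7 and 15 runs of 8, against 7 on distal 3q. Chromosomes 8 and 11 also had runs of 7, with 1078 and 642 intervals against the 947 of distal 3q. With all dense tracts (defined below) left out, the run of distal 3q at 50 or more was again of 7 windows, with 851 intervals. Its tracts all lie in its last window, so the other windows of the run could not change.

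These runs differed in make-up. Distal 3q, at 28.8 intervals per Mb, was near the chromosome 1 run (31.65), above the chromosome 11 run (20.04) and below the chromosome 20 run (75.3). Dense tracts held 10.1% of its intervals, against 0 of 501 on chromosome 11, 40.4% on chromosome 20 and 52.1% on chromosome 1. Without the tracts distal 3q was at 25.9 intervals per Mb and no longer near the chromosome 1 run, which was at 15.15. The chromosome 11 run stayed at 20.04 and the chromosome 20 run was at 44.9. Intervals without a close neighbour made up 28.2% on distal 3q, 43.7% on chromosome 11, 16.3% on chromosome 1 and just 9.76% on chromosome 20. The share of 250 kb windows with an interval was alike on distal 3q (88.6%) and chromosome 11 (87%). It was 97.2% on chromosome 20 and 77.5% on chromosome 1. The fullest 5 Mb window held 23.8% of the distal 3q intervals. For the runs of chromosomes 11, 1 and 20 this share was 31.9%, 42.7% and 49.1%. Such a share depends on how many windows a run has. Distal 3q had 7 windows, and the other runs had 5, 4 and 4 in the order just given. These shares therefore cannot rank the runs by evenness. At 617 bp, distal 3q had the lowest median width of the 4. It stood below the 629, 714 and 715 bp of the runs of chromosomes 11, 1 and 20. Its intervals without a close neighbour, at 537 bp, were likewise the narrowest, against 574, 610 and 614 bp in the same order.

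Spacing within distal 3q was short. Its median gap between neighbours was 10.7 kb, with quartiles of 3.23 and 33.8 kb, whereas before the limit the median gap was 115.85 kb. Gaps of 1 kb or less numbered 110 of 946, and 17 of these were 100 bp or shorter. Joining intervals up to 1 kb apart left 837 distal intervals and 351 before the limit, and the density ratio was then 11.7.

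Intervals were linked where they lay no more than 12500 bp apart. Linked groups of 3 or more numbered 88 in distal 3q and held 498 of the 947 intervals (52.6%), while 267 intervals (28.2%) stood single. Before the limit there were 8 such clusters with 97 of 399 intervals (24.3%), and 254 (63.7%) stood single. Single intervals were commonest in the thin parts: they were 71.4% of the intervals in the first 4 Mb, 71.6% from 173 to 182 Mb and 58.8% from 189 to 193 Mb. Their share was 39.3% in the first hump, 24.8% in the middle hump and 9.79% in the terminal hump. Linkage follows from density, so these shares repeat the profile at a finer scale.

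Clusters of 20 intervals or more, called dense tracts, numbered 3 in distal 3q, all in the terminal hump. The largest, chr3:195342884-195516760, had 50 intervals in 173.9 kb, of which they covered 32.0%. The second, chr3:195664602-195736377, held 26 intervals in 71.8 kb (38.1% covered). The third, chr3:197348883-197410234, held 20 intervals in 61.4 kb (40.7% covered). The first and second lie so close that the 393.5 kb from the start of one to the end of the other held 95 intervals, which covered 28.9% of that ground. Outside the tracts the largest cluster, of 15 intervals, was chr3:184275836-184323423 in the middle hump and covered 35.9% of its 47.6 kb.

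**Figure D2:**
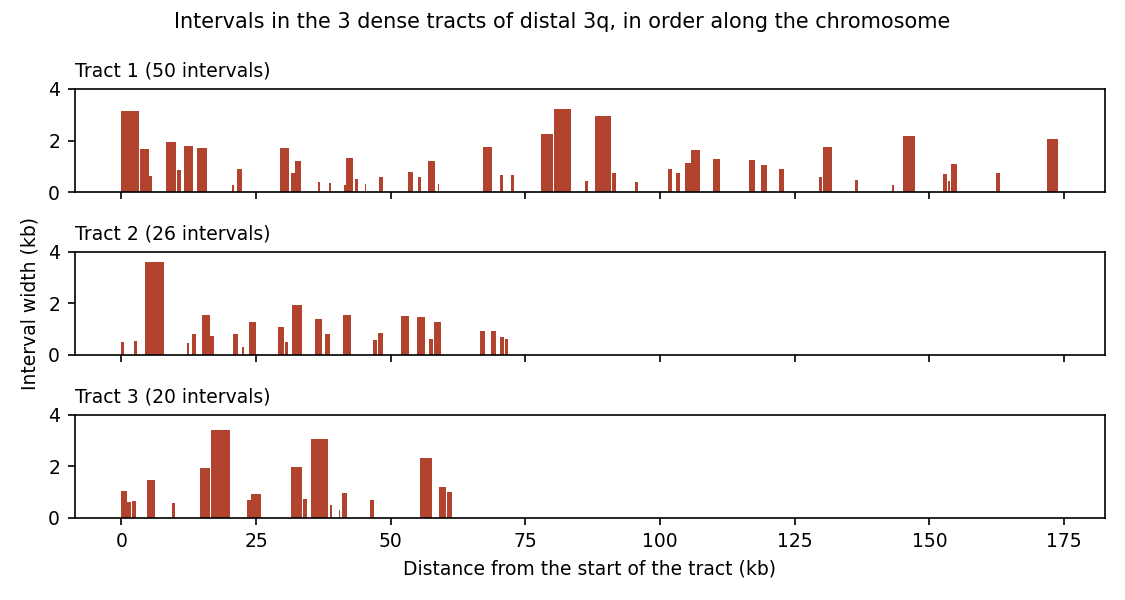
Each bar is 1 interval of the 3 dense tracts of distal 3q, placed by its distance from the tract's start in kb and as wide on that axis as the interval, with its width in kb also as height. Intervals over 2 kb stand among much narrower ones in all 3 tracts.

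The ratio of densities was not lowered by leaving out the dense tracts. In distal 3q they held 96 of the 947 members (10.1%). Without them 851 intervals remained, at 25.9 per Mb, and chromosome 3 before the limit, which lost 76 of its 399 in the same way, was at 2.01 per Mb, a ratio of 12.9. The terminal hump without its tracts held 292 intervals, or 59.8 per Mb, still above the middle hump. Before the limit there were 2 tracts, chr3:75681072-75803093 with 39 intervals and chr3:90439590-90500747 with 37. They made up a larger share of their part, 19.05%, than the 3 tracts did of distal 3q.

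Width is the only measure beside position that the list gives for an interval. It comes from the same calls as the positions, so it too is described without a test. Distal 3q intervals had a median width of 617 bp with quartiles of 450 and 893 bp, and ranged from 130 to 3815 bp. Those before the limit had a median of 446 bp with quartiles of 329 and 602 bp, a ratio of medians of 1.38. The 19793 intervals of the other chromosomes had a median of 588 bp with quartiles of 417 and 865 bp. Distal 3q was thus 1.05 times the rest of the genome by median width, and it was the remainder of chromosome 3 that lay lower. Of the distal intervals 182 (19.2%) were 1 kb or wider, against 19 (4.76%) before the limit and 18.4% on other chromosomes. At the narrow end, 37 distal intervals (3.91%) were under 300 bp, against 78 (19.5%) before the limit and 8.74% elsewhere. Among those 78 are most intervals of 1 dense tract, chr3:90439590-90500747, whose median width was 283 bp.

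**Figure D3:**
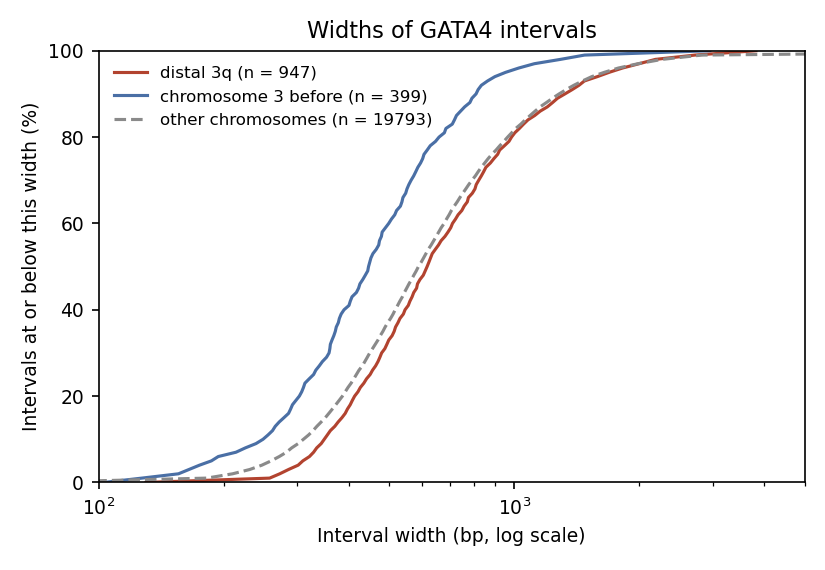
Share of intervals in percent at or below each width in bp (log scale) for distal 3q, chromosome 3 before the limit and the other chromosomes. The curve of distal 3q runs close to that of the other chromosomes, with a smaller share under 300 bp, and the curve of the rest of chromosome 3 lies at smaller widths.

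Inside distal 3q the more crowded classes were wider. Single intervals had a median of 537 bp, pairs 547.5 bp, members of clusters of 3 to 19 675.5 bp and members of dense tracts 898 bp. Intervals of the other chromosomes had medians of 516, 566.5, 670 and 768 bp in the same 4 classes. Before the limit the medians were 447, 441.5, 423 and 447.5 bp, without that order, over 254, 48, 21 and 76 intervals. The 76 come from just 2 tracts with unlike medians of 679 and 283 bp, so that class rests on 2 places. Single intervals, which no neighbour crowds, still differed between both sides of the limit, by a ratio of 1.20, although this is less than the 1.38 over all intervals. By part, the median was 498 bp in the first 4 Mb, 556 bp in the first hump, 504 bp from 173 to 182 Mb, 624 bp in the middle hump, 519 bp from 189 to 193 Mb and 700 bp in the terminal hump. The terminal hump without its tracts had a median of 662.5 bp. Over the 33 windows of 1 Mb, which differ in how many intervals each median rests on, the Pearson r between count and median width was 0.51 and the Spearman rho 0.40, given as a description.

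**Figure D4:**
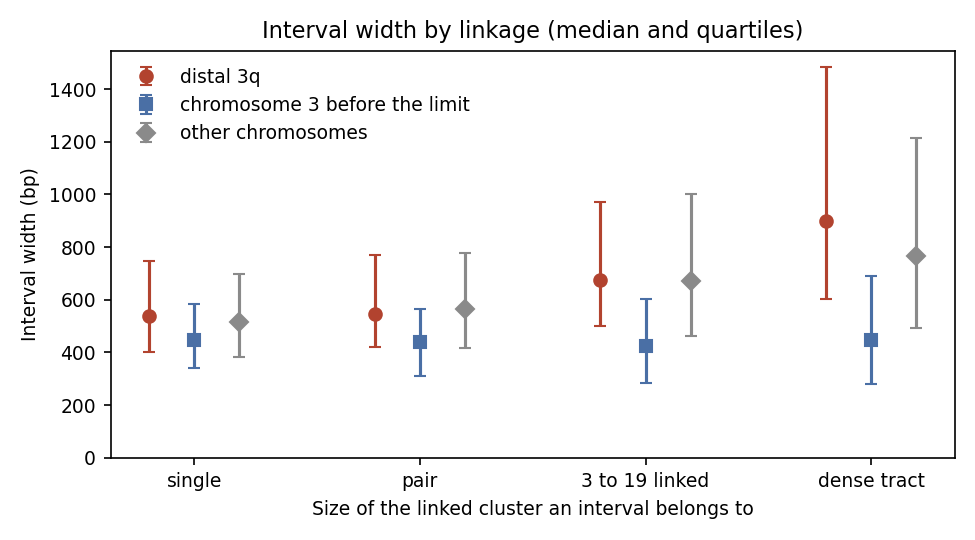
Median interval width in bp (points) with quartiles (bars) for single intervals, pairs, clusters of 3 to 19 and dense tracts, in distal 3q, chromosome 3 before the limit and the other chromosomes. Medians of distal 3q run from 537 to 898 bp and those before the limit stay between 423 and 447.5 bp.

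In windows of the same fullness distal 3q was wider than the rest of chromosome 3 in 3 of the 4 classes that hold intervals of both. Each of those 3 rests on few intervals or few places on 1 side, so the tally carries little weight. In 1 Mb windows with 1 to 4 intervals the median width was 599 bp over 9 distal intervals, 439.5 bp over 184 before the limit and 442 bp on other chromosomes. In windows with 5 to 9 intervals it was 448 bp over 34 distal intervals and 491 bp over 104 before the limit, with 501 bp on other chromosomes. In windows with 10 to 19 intervals it was 502 bp over 108 distal intervals, 413 bp over 20 before the limit and 574 bp elsewhere. In windows with 20 to 39 intervals, of which none lay before the limit, it was 567.5 bp over 282 distal intervals and 608.5 bp on other chromosomes. In windows with 40 to 79 intervals it was 682 bp over 293 distal intervals and 625 bp on other chromosomes. Before the limit such full windows held 91 intervals with a median of 415 bp. Most of these belong to the 2 tracts named above, whose medians were 679 and 283 bp. In windows with 80 or more the distal median was 731 bp over 221 intervals, below the 828.5 bp of the other chromosomes. Against the other chromosomes distal 3q was thus narrower in 4 of the 6 classes and wider in 2.

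The 10 widest intervals of distal 3q all lay beyond 195 Mb. The widest, chr3:195633565-195637380, measured 3815 bp and ranked 83 in the whole list. It was followed by chr3:195668983-195672586 (3603 bp), chr3:197365544-197368956 (3412 bp), chr3:195600551-195603889 (3338 bp) and chr3:195423154-195426367 (3213 bp). The other 5 were chr3:195342884-195346047 (3163 bp), chr3:197384153-197387209 (3056 bp), chr3:195542043-195545077 (3034 bp), chr3:195430788-195433740 (2952 bp) and chr3:195225795-195228517 (2722 bp). Dense tracts held 6 of the 10, and each of the other 4 lay in a cluster of 8 or 9 intervals. The widest and the fourth widest share a cluster of 9 intervals, chr3:195594535-195645742, whose median width of 2009 bp was above that of any dense tract. Widths within the tracts were mixed: in the largest they ran from 281 to 3213 bp with a median of 873 bp, and 22 of its 50 intervals were 1 kb or wider. The second tract had a median of 838 bp and the third one of 946.5 bp. On the other side of the limit the 2 tracts differed, with a median of 679 bp in the tract of 39 intervals and 283 bp in the tract of 37.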

How the data were processed

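Per the submitters' processing notes, the authors used the peak caller SEACR, the package HOMER and build hg19. Not given in the sources used here are their versions and settings, and the overlap that made a peak common. The deposited list has 3 columns (chromosome, start, end in bp) and no score, signal or count, so depth and its precision are unknown. It held 21308 intervals and 1 blank line; 169 intervals off the autosomes and chromosome X were left out, and 0 were duplicated. Whether starts count from 0 is not stated. Widths are end minus start.

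Positions were analysed in Python 3.11.15 (numpy 2.4.6, pandas 2.3.3, matplotlib 3.10.9), with scripts tested on simulated positions. Windows count interval starts from position 0 to the last interval of a chromosome. Density is intervals per Mb. Humps are 2 or more adjacent 1 Mb windows at or above the median count of the stretch. Intervals at most 12.5 kb apart were linked; clusters have 3 or more, dense tracts 20 or more. The text names the 10 widest intervals, the largest clusters and the fullest windows. Members, lists and limits, 165 Mb included, were chosen with earlier results of these data known. The planned work on promoters, motifs and genes needs an hg19 sequence or annotation and was not run; for the same reason no sequence is printed.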

Additional observations from a re-analysis of the deposited data

How the results depend on the processing

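For 6 results, between 2 and 6 alternatives each were run, 25 in all; the other values were not recomputed. Of these, 13 were planned and 12 were chosen after seeing the data. The added ones are the lower limit at 169 Mb, the limits at 160 and 170 Mb for the width ratio, single intervals, leaving out tracts for the density ratio and for the width ratio against other chromosomes, joining within 1 kb for clusters and tracts, and other linking distances for tracts. Counts and density ratios within 1.5 times the reported value, and width ratios within 1.1 times, were 17 of the 25. Among the ratios 0 turned direction, while plain counts have no direction to turn. Density chose the members, so the direction of the density ratio was largely fixed beforehand. The density ratio was 22.6 for intervals at or above the median width of the whole list, which keeps a smaller share of the intervals before the limit than of the distal ones, and between 10.2 and 12.9 otherwise. The width ratio against chromosome 3 before the limit was 1.20 for single intervals and between 1.34 and 1.38 otherwise. Clusters numbered 55 with a linking distance of 5 kb. The report's 3 dense tracts became 6 when 10 intervals sufficed and 1 when 50 were needed. Linking at 5 kb gave 1 tract, linking at 25 kb gave 5, and joining intervals within 1 kb beforehand gave 1. Alternatives on promoters, motifs and genes were not run, and a pooled list allows no leaving out of a library. No paired analysis was possible because the 4 libraries form 1 group. As depth is not known, ground without an interval may still hold signal below the calling threshold or not common to all libraries.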
